A study of Mus musculus with 9 samples.

Results

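CC chemokines are small secreted proteins, named for a pair of adjacent cysteines, that draw leukocytes along a gradient. The 7 mouse genes Ccl2, Ccl7, Ccl5, Ccl9, Ccl20, Ccl8 and Ccl25, were followed in RNA-seq libraries of a stimulated cell culture. They were chosen by name, as listed CC chemokines, from the 56289 genes of the deposited table. The list was made with earlier results of these data known. The study names Ccl2, Ccl5, Ccl9 and Ccl20 among the hub genes it drew from these data. Libraries were made from cultures labelled RAW264.7, a macrophage-like line of BALB/c origin, in 3 groups of 3. The Con group was given no TNF-α and no extract, and the study names PBS for its control cells. The TNF-α group was stimulated with TNF-α for 24 h. The third group received TNF-α for 24 h together with the agent that the labels spell WBP. It was taken to be the Wang Bi Tablet extract (WBT) of the study, a Chinese herbal preparation used in rheumatoid arthritis, and the group is called TNF-α+WBT below. The design has no group with WBT alone. The study calls the 3 libraries of a group biological replicates, while the labels do not say whether they came from separate cultures, so a p-value measures the spread between these libraries.

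CC chemokines act on G protein-coupled receptors of the CCR family. Ccl2, Ccl7 and Ccl8 are monocyte chemoattractants, with Ccr2 as the main receptor of Ccl2 and Ccl7. Ccl5 draws T cells and monocytes, Ccl9 acts through Ccr1 on myeloid cells, Ccl20 is the ligand of Ccr6, and Ccl25 is the ligand of Ccr9 and is best known from thymus and small intestine. TNF-α binds its receptors and activates the transcription factor NF-κB, and Ccl2, Ccl5 and Ccl20 are textbook NF-κB targets. In inflamed joints, such chemokines bring monocytes and T cells into the synovium.

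The label macrophage was not borne out by its markers. Of 18 macrophage markers, Cd14 alone lay above 1 FPKM in all 9 libraries. At 0 throughout were the leukocyte gene Ptprc, the transcription factor gene Spi1, the surface markers Adgre1 and Itgam, and Ctss, Cybb and Tyrobp, and Csf1r reached at most 0.0725 FPKM. FPKM correct the fragments of a gene for transcript length and library depth, a unit that allows levels to be compared between genes. The summed level of the 18 macrophage markers was 6.30 to 7.54 FPKM in Con, 7.22 to 8.39 in TNF-α and 7.29 to 8.99 in TNF-α+WBT. The sum of 18 fibroblast markers was 5603 to 6269 FPKM over the 9 libraries, with 13 of them above 1 FPKM in all 9. The sum of 12 Schwann cell markers was 925.6 to 982.7 FPKM in Con, 751.5 to 813.4 in TNF-α and 817.6 to 846.5 in TNF-α+WBT, with 8 of them above 1 FPKM throughout. The results below therefore describe cultures labelled RAW264.7, and no cell type is assumed. In bulk RNA, more cells that make a transcript and more transcript per cell cannot be told apart.

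The genes lie at 4 places in the genome (GRCm38, GENCODE M21). Ccl2 (ENSMUSG00000035385, chr11:82035571-82037453), Ccl7 (ENSMUSG00000035373, chr11:82045712-82047525) and Ccl8 (ENSMUSG00000009185, chr11:82115185-82116799) share a stretch of 81.2 kb on the plus strand. Ccl5 (ENSMUSG00000035042, chr11:83525778-83530518) and Ccl9 (ENSMUSG00000019122, chr11:83572919-83578636) lie on the minus strand within 52.9 kb, 1.41 Mb further along. Ccl20 (ENSMUSG00000026166, chr1:83116766-83119167) and Ccl25 (ENSMUSG00000023235, chr8:4325210-4360020) stand apart from these clusters. All 7 are protein-coding genes.

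Promoter windows of 250 bases before an annotated start were taken from RefSeq (GRCm38.p6), which matched 4 of the 7 genes, with 2 starts for Ccl25. Ccl2, Ccl7 and Ccl5 had no window. Ccl20, Ccl9 and Ccl25 are shown because the first pair rose with TNF-α and Ccl25 did not pass the test (values below), and because the 2 starts of Ccl25 carry unequal shares of its transcripts. The windows are chr1:83116516-83116765 on the plus strand for Ccl20, chr11:83578637-83578886 on the minus strand for Ccl9, and chr8:4324960-4325209 and chr8:4349338-4349587 on the plus strand for the upstream and downstream start of Ccl25. Each is written 5′ to 3′, and capitals mark matches, on either strand, to the NF-κB consensus, the TATA box letters TATAAA, the AP-1 letters TGANTCA or the interferon response letters GAAANNGAA.
Ccl20: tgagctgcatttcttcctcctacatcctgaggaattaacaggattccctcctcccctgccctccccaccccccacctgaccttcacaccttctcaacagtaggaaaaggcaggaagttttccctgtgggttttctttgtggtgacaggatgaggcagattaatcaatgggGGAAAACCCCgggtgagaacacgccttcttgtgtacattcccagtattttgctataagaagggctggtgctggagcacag
Ccl9: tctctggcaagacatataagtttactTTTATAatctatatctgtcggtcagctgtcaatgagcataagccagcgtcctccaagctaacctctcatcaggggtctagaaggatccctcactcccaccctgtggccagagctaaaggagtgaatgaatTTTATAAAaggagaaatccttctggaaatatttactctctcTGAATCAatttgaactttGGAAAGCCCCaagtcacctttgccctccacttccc
Ccl25 upstream: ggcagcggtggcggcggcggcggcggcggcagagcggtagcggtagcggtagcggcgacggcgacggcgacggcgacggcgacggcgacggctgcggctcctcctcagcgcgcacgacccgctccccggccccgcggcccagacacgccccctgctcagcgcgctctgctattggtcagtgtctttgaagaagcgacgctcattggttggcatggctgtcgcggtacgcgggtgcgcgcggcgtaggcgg
Ccl25 downstream: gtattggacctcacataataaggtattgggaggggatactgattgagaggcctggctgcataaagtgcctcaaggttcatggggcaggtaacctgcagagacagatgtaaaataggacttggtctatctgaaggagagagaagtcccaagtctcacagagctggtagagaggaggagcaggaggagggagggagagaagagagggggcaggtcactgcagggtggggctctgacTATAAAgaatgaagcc

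In the Ccl20 window the capitals mark 1 match to the NF-κB consensus, GGAAAACCCC, beginning at -80 from the start. The Ccl9 window held an NF-κB match, GGAAAGCCCC, at -35, an AP-1 match at -53 and 3 TATA matches, of which a pair overlapped at -94 and -92. The upstream window of Ccl25 held none of the 4 motifs and had a GC content of 74.8%, against a median of 52.4% over all 32851 windows of this length. The downstream window of Ccl25 held a TATA match at -16 and had a GC content of 51.6%. The window of Ccl8 held a TATA match at -32 and no other. Over all windows, 7.25% held the NF-κB consensus, 12.4% TATAAA, 6.75% the AP-1 letters and 7.13% the interferon response letters. A match is a string of letters and not a measured site. The printed windows were picked by the outcome in these data, and no contrast between them was tested.

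The first comparison, TNF-α against Con, asks which of these genes respond to the cytokine. Of the 7 genes, 5 rose at a Benjamini-Hochberg adjusted p under 0.05 in limma, namely Ccl2, Ccl7, Ccl5, Ccl9 and Ccl20, and 0 fell. Over all 25417 genes tested, 2.94% were called higher and 1.93% lower by that rule. The 7 genes were listed with earlier results of these data known, so their counts beside such shares are a description. By the thresholds of the study (fold change over 2 and unadjusted p under 0.05), 6 of the 7 were higher, against 1.37% of all genes. The same 6 had every TNF-α library above every Con library, which held for 11.1% of all genes. The median log2 difference of the 7 genes was 1.73, against 0.0028 over all tested genes, and it was 1.66 over the 6 genes without Ccl20. Ccl20 was listed at 0 in Con and passed the filter on low values only through the stimulated groups, where it is high. Its call is therefore no independent support, and without it the count called was 4 of 6. The 4 include Ccl5, which was above 0 in only 2 Con libraries and also needed the stimulated groups to pass. The call of Ccl5 is no independent support either. The 6 genes whose groups did not overlap (all but Ccl25) gave the smallest p that exact two-sided permutation of 3 against 3 libraries allows, 0.1.

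**Figure D1:**
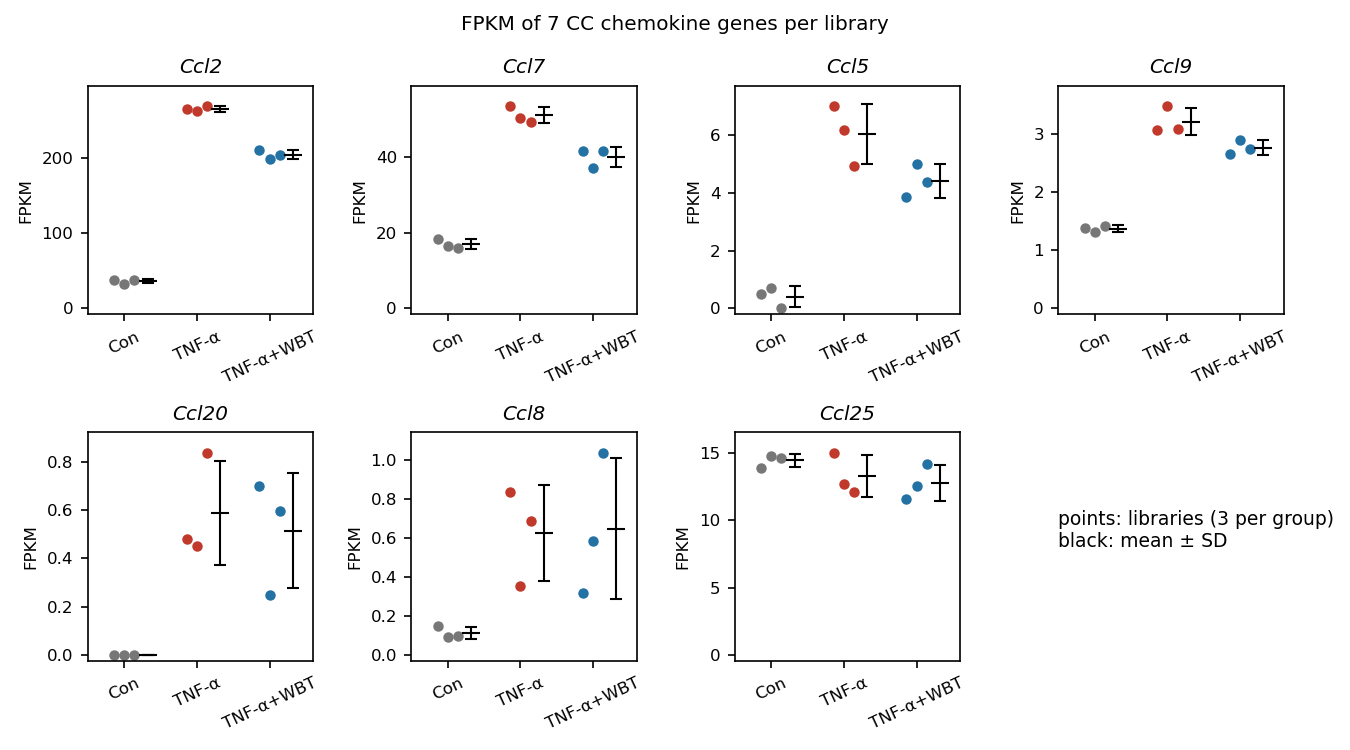
FPKM of the 7 CC chemokine genes in each of the 9 libraries, 1 panel per gene, with points for libraries and black bars for the group mean ± SD (n = 3). Ccl2, Ccl7 and Ccl9 show 3 separate levels with TNF-α+WBT between Con and TNF-α, whereas the 3 groups overlap for Ccl25.

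Among the monocyte chemoattractants, Ccl2 was the most abundant CC chemokine in every library. Its level was 38.1, 32.7 and 37.1 FPKM in the Con libraries, 264.9, 261.8 and 268.8 in those with TNF-α and 210.0, 198.4 and 204.4 in those with TNF-α+WBT. No group overlapped another, and the TNF-α+WBT libraries sat nearer to TNF-α than to Con. From 36.0 ± 2.86 FPKM in Con (SD, n = 3) the level rose to 265.2 ± 3.51 with TNF-α (SD, n = 3), a fold of 7.37 (95% interval 6.75 to 8.04, limma adjusted p = 8.55e-08). The estimated number of fragments behind each value was 596.0 to 828.6 in Con and 4243.6 to 4909.4 in TNF-α, so counting error was small beside the difference. A transcript with a retained intron held 7.72% to 10.8% of the Ccl2 level in Con, 8.20% to 8.73% in TNF-α and 6.87% to 9.33% in TNF-α+WBT, and these ranges overlapped.

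Ccl7, the neighbour of Ccl2 at a distance of 8.26 kb, was measured at 18.4, 16.4 and 15.8 FPKM in Con, 53.3, 50.2 and 49.3 in TNF-α and 41.4, 36.9 and 41.6 in TNF-α+WBT. As for Ccl2, the 3 groups did not overlap. With TNF-α the mean of 16.9 ± 1.32 FPKM became 50.9 ± 2.12 (SD, n = 3 each), a fold of 3.01 (95% interval 2.70 to 3.36, adjusted p = 5.34e-06). Within each library the log2 ratio of Ccl7 to Ccl2 was -1.23 to -1.0 in Con and -2.45 to -2.31 in TNF-α. The ratio thus fell by 1.29 on the log2 scale, which says that Ccl2 rose more than Ccl7 (exact two-sided permutation p = 0.1, the smallest possible).

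Ccl8, the third monocyte chemoattractant of this cluster, stayed near the detection limit. It was listed at 0.147, 0.0906 and 0.0968 FPKM in Con, 0.836, 0.356 and 0.687 in TNF-α and 0.321, 0.588 and 1.04 in TNF-α+WBT. Even so, no TNF-α library was as low as any Con library. These values rest on 1.0 to 2.0 estimated fragments per Con library and 4.1 to 9.0 per TNF-α library. Summed by group, an estimated 20 fragments in TNF-α stood against 4 in Con, a ratio of 5.44 per unit depth with an exact interval of 1.82 to 21.9 that covers counting error only. In limma the difference was 1.73 ± 0.41 (SE) on the log2(FPKM + 0.1) scale, with an adjusted p of 0.0509. It passed the threshold at a pseudocount of 0.01 (0.0337), in a model of only these 2 groups (0.0469), with median centring (0.0495), and when TNF-α replicate 2 (0.0471) or replicate 1 (0.0361) or 3 (0.0356) of TNF-α+WBT was left out. The other 12 of 18 alternatives did not pass, and the adjusted p was highest, at 0.157, without TNF-α replicate 3. A pseudocount of 1 gave 0.54 on the log2 scale (0.13).

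Ccl5, which attracts T cells and monocytes, was measured at 0.503, 0.698 and 0 FPKM in Con, 7.0, 6.19 and 4.92 in TNF-α and 3.86, 5.02 and 4.39 in TNF-α+WBT. Con was low throughout, with at most 8.1 estimated fragments in a library, and the other 2 groups were higher in every library. The mean went from 0.400 ± 0.360 to 6.04 ± 1.05 FPKM (SD, n = 3 each). On the log2(FPKM + 0.1) scale the difference was 4.06 (95% interval 2.54 to 5.58, adjusted p = 0.00931). The size of this difference depends on the pseudocount, because Con replicate 3 was listed at 0. It was 5.28 with a pseudocount of 0.01, where the adjusted p was 0.0695, 2.35 with a pseudocount of 1, and 3.13 without Con replicate 3. Ccl5 passed the filter on low values only with the stimulated libraries, so its adjusted p is given as a description.

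Ccl9, a myeloid chemoattractant of the same cluster as Ccl5, changed least among the genes that rose. Its level was 1.39, 1.31 and 1.42 FPKM in Con, 3.08, 3.48 and 3.09 in TNF-α and 2.66, 2.91 and 2.74 in TNF-α+WBT. The 3 groups were separate from one another. The fold was 2.25 between TNF-α and Con (95% interval 1.91 to 2.65, adjusted p = 0.000351), with 85.1 to 108.9 estimated fragments per Con library. In each TNF-α library, 89.1% to 100.0% of this level was assigned to the protein-coding transcript.

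Ccl20, the ligand of Ccr6, was listed at 0 in the 3 Con libraries. With TNF-α it was listed at 0.480, 0.449 and 0.837 FPKM, and with TNF-α+WBT at 0.701, 0.246 and 0.594. An estimated 8.0 to 12.9 fragments per TNF-α library and 4.0 to 10.0 per TNF-α+WBT library stood behind these values, so the gene was detected in the 6 stimulated libraries at a low level. In limma the adjusted p was 0.0028 against Con, for a gene that could be tested only because the stimulated libraries had values above 0, so it is given as a description. No fold is given because Con was at 0.

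Ccl25, the ligand of Ccr9, did not pass the test. It was measured at 13.9, 14.8 and 14.7 FPKM in Con, 15.0, 12.7 and 12.1 in TNF-α and 11.6, 12.5 and 14.2 in TNF-α+WBT. The 3 groups overlapped. The fold between TNF-α and Con was 0.917 (95% interval 0.787 to 1.07, adjusted p = 0.613), an interval that leaves out both a doubling and the folds of Ccl2 and Ccl7.

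The level of Ccl25 was divided over 10 annotated transcripts. The 7 that begin within 100 bases of the upstream start held 56.2% to 75.9% of it in the 9 libraries, and the 2 coding transcripts of the downstream start held 5.73% to 25.4%. A single-exon transcript between the starts held the remaining 15.3% to 24.0%. The first 204 bases of Ccl25 overlap Elavl1, an RNA-binding protein gene on the opposite strand at chr8:4285382-4325413, and the upstream window printed above lies inside Elavl1. Elavl1 was measured at 21.3 to 26.5 FPKM. The library protocol names no step that marks strand, so fragments from the shared bases cannot be told apart. Transcripts of the upstream start overlapped between the groups and ranged over 8.31 to 10.5 FPKM in Con, 8.76 to 9.63 in TNF-α and 7.97 to 10.3 in TNF-α+WBT. Other parts of the gene did separate in places, and these were not tested. The single-exon transcript was at 2.56 to 3.52 FPKM in Con, 1.86 to 2.73 in TNF-α and 2.15 to 2.31 in TNF-α+WBT, so that Con lay above TNF-α+WBT. The 4 protein-coding transcripts summed to 6.09 to 8.14 FPKM in Con, 5.06 to 6.30 in TNF-α and 5.15 to 5.33 in TNF-α+WBT, again with Con above TNF-α+WBT. Their share was 43.8% to 55.0% in Con, 41.3% to 42.0% in TNF-α and 37.2% to 44.4% in TNF-α+WBT, with Con above TNF-α.

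**Figure D2:**
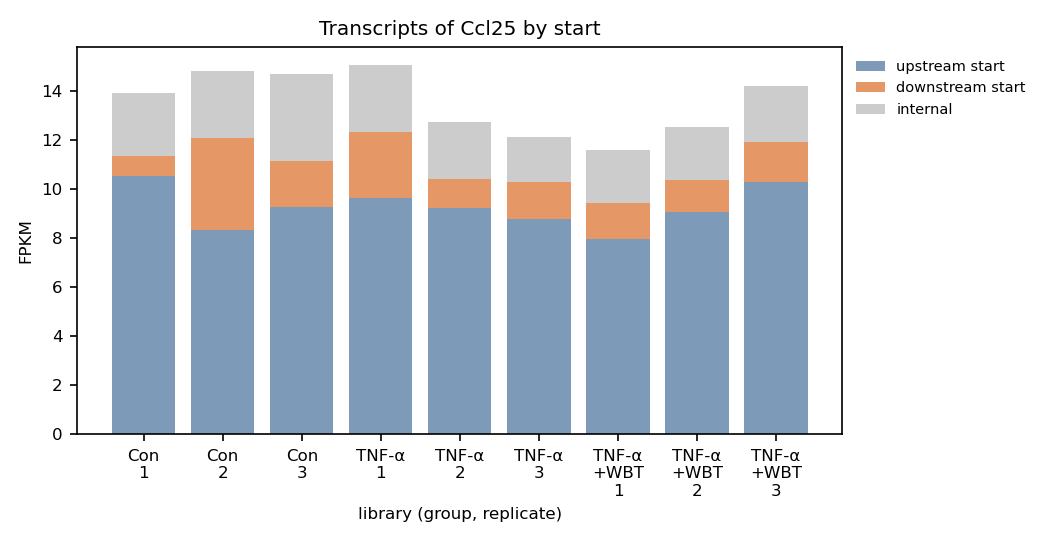
Summed FPKM of the Ccl25 transcripts in each library, stacked by where they start, namely at the upstream start (7 transcripts), at the downstream start (2) or between them (1). The upstream start makes up most of each bar, from 56.2% to 75.9%, and overlaps between groups, while the segment between the starts is higher in the Con libraries than in the TNF-α+WBT libraries.

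The second comparison, TNF-α+WBT against TNF-α, asks whether the genes differ when the extract is added. In limma, 0 of the 7 genes had an adjusted p under 0.05, and over all tested genes 0.0% were called lower by that rule. At an unadjusted p under 0.05, 2 of the 7, Ccl2 and Ccl7, were lower, against 3.43% of all genes. By the thresholds of the study, which also require a fold over 2, 0 of the 7 were lower, against 0.618% of all genes. Ccl2, Ccl7 and Ccl9 had every TNF-α+WBT library below every TNF-α library, which held for 5.61% of all genes. The median log2 difference was -0.21 over the 7 genes and -0.002 over all tested genes.

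The difference was 0.770-fold for Ccl2 (95% interval 0.706 to 0.841, unadjusted p = 0.000108, adjusted p = 0.179), with means of 204.3 ± 5.82 and 265.2 ± 3.51 FPKM (SD, n = 3 each). For Ccl7 it was 0.785-fold (95% interval 0.703 to 0.875, unadjusted p = 0.000821, adjusted p = 0.354), with means of 40.0 ± 2.65 and 50.9 ± 2.12 FPKM. Both values were thus lower in 3 of 3 TNF-α+WBT libraries and neither passed the correction over all genes. The log2 ratio of Ccl7 to Ccl2 was -2.43 to -2.30 in TNF-α+WBT, a range that overlapped that of TNF-α (difference 0.03, exact two-sided permutation p = 0.7). For Ccl9 the fold was 0.866 (95% interval 0.734 to 1.02, adjusted p = 0.816).

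The other 4 genes overlapped between these groups. Ccl5 stood at 4.42 ± 0.583 against 6.04 ± 1.05 FPKM (SD, n = 3 each), a fold of 0.740 with a 95% interval of 0.258 to 2.12, a span too wide to tell a fall from a rise. Ccl20 stood at 0.514 ± 0.238 against 0.589 ± 0.216 FPKM, with a log2 difference of -0.21 (95% interval -1.02 to 0.60). Ccl8 had an estimated 18 fragments against 20, a ratio of 1.02 per unit depth (exact interval 0.510 to 2.04, counting error only). Ccl25 had a fold of 0.962 (95% interval 0.826 to 1.12). The depth of Ccl20 and Ccl8 did not allow a change of the size of Ccl2 and Ccl7 to be detected.

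**Figure D3:**
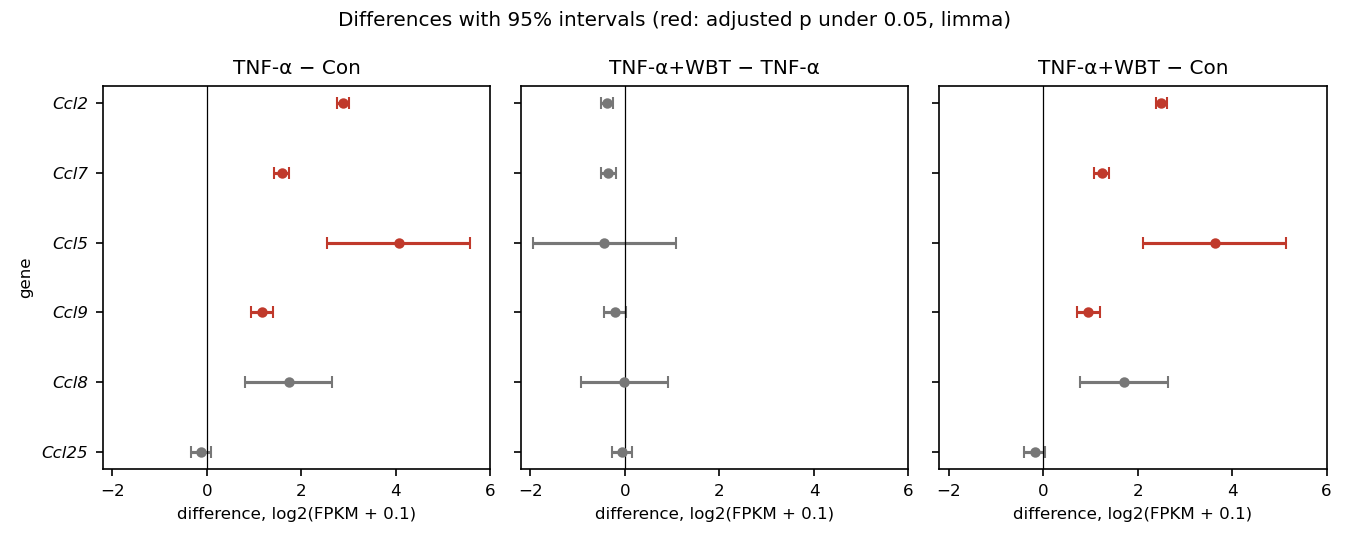
Differences on the log2(FPKM + 0.1) scale with 95% intervals from limma, for the 3 comparisons and 6 of the genes, in red where the adjusted p was under 0.05 (Ccl20, listed at 0 in Con, is left out). Ccl2 and Ccl7 have narrow intervals below 0 in the middle panel, at -0.38 and -0.35, and no gene is red there.

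In the third comparison, TNF-α+WBT against Con, which shares its libraries with the first 2, 5 of the 7 genes were called higher at an adjusted p under 0.05, against 2.31% of all tested genes. These were again Ccl2, Ccl7, Ccl5, Ccl9 and Ccl20, or 4 of 6 without Ccl20. The call of Ccl5 has the same limit, because it too passed the filter through the stimulated groups. The fold was 5.68 for Ccl2 (95% interval 5.20 to 6.20, adjusted p = 2.78e-07), 2.36 for Ccl7 (2.12 to 2.64, adjusted p = 3.08e-05) and 1.95 for Ccl9 (1.65 to 2.30, adjusted p = 0.00133). Ccl20 had an adjusted p of 0.00541. Ccl5 differed by 3.63 on the log2 scale (adjusted p = 0.0202). That call was lost without TNF-α+WBT replicate 1 (0.0615), replicate 2 (0.0753) or replicate 3 (0.0685), in a model of only these 2 groups (0.0806), and with a pseudocount of 0.01 (0.109). Without Con replicate 3, which was listed at 0, the difference was 2.70. Ccl8 had an adjusted p of 0.0611, which passed with a pseudocount of 0.01 (0.0405) and without replicate 1 of TNF-α+WBT (0.0375). It did not pass in the other 16 of 18 alternatives, where it reached 0.172. Ccl25 was 0.881-fold (95% interval 0.757 to 1.03, adjusted p = 0.446).

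The order of levels differed between Con and the stimulated libraries. In Con it was Ccl2, Ccl7, Ccl25, Ccl9, Ccl5, Ccl8 and Ccl20 from the highest mean to the lowest, with Ccl5 and Ccl8 overlapping. In TNF-α and in TNF-α+WBT, Ccl5 stood above Ccl9 without overlap, and Ccl8 and Ccl20 overlapped at the bottom of the order. The summed FPKM of the 23 CC ligand genes with a row in the table was 69.7 to 75.6 in Con, 338.7 to 349.1 in TNF-α and 261.2 to 274.2 in TNF-α+WBT. Ccl2 made up 49.4% ± 2.14 of that sum in Con and 77.2% ± 1.24 in TNF-α (SD, n = 3 each). Ccl25 made up 19.9% ± 1.43 in Con and 3.87% ± 0.396 in TNF-α, although its own level did not pass the test. In TNF-α+WBT the share of Ccl2 was 75.9% ± 0.727, and its range of 75.2% to 76.6% overlapped that of 75.9% to 78.3% in TNF-α.

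**Figure D4:**
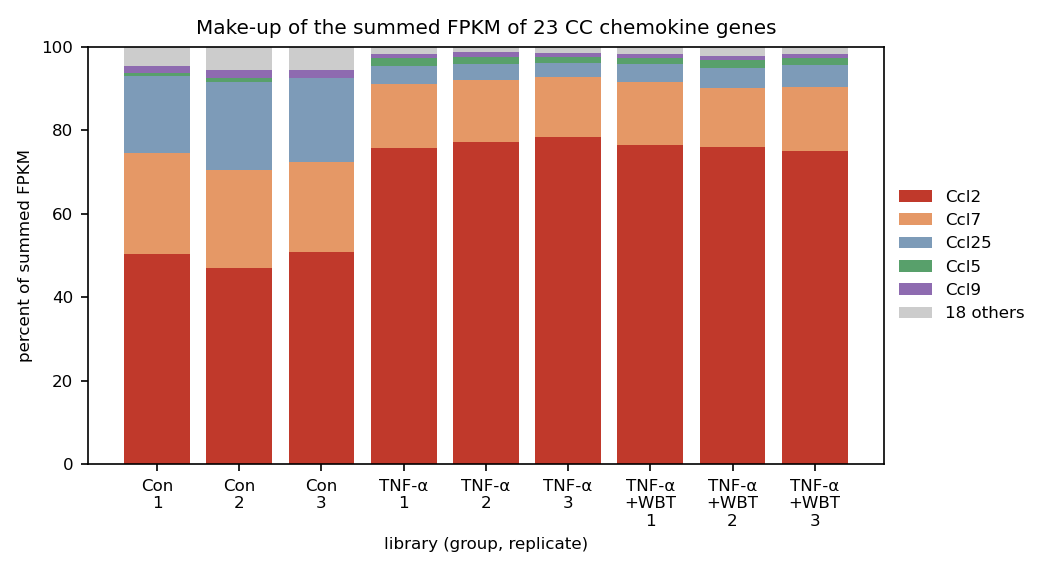
Percent of the summed FPKM of 23 CC chemokine genes in each library, stacked by gene, with the 18 genes not named in the legend in grey. Ccl2 fills 46.9% to 50.8% of the Con bars and 75.2% to 78.3% of the bars of the 6 stimulated libraries.

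The neighbours of the genes that rose had few or no fragments. Between Ccl7 and Ccl8, the eosinophil chemoattractant Ccl11 reached at most 0.0525 FPKM, from 1.0 estimated fragment, and Ccl12, another monocyte chemoattractant, was listed at 0 in all 9 libraries. Next to Ccl9, Ccl6 was above 0 in 7 libraries but reached at most 0.0735 FPKM, from at most 2.0 estimated fragments. Ccl3, the macrophage inflammatory protein gene of the same cluster, reached 0.0597 FPKM in 1 library and was listed at 0 in the other 8, and Ccl4 was listed at 0 in all 9. In the first cluster 3 of 6 ligand genes (Ccl2, Ccl7 and Ccl8) and in the second 2 of 5 (Ccl5 and Ccl9) exceeded 0.1 FPKM in any library.

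**Figure D5:**
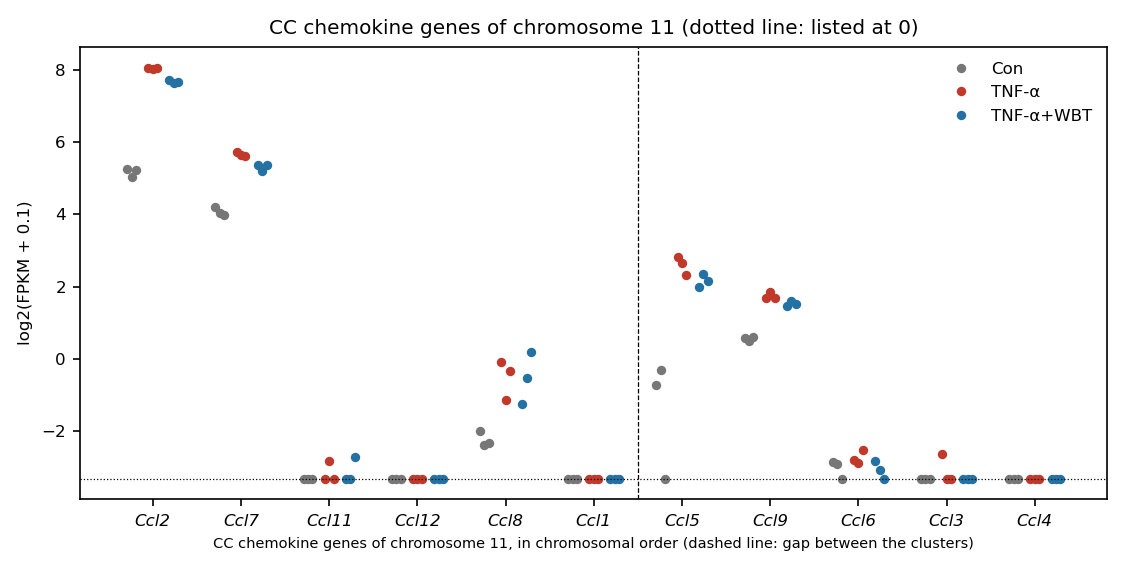
Levels of the 11 CC chemokine genes of chromosome 11 in chromosomal order, as log2(FPKM + 0.1), with 1 point per library. Ccl2, Ccl7, Ccl8, Ccl5 and Ccl9 lie above the dotted line that marks a value of 0, except for Con replicate 3 of Ccl5, and their neighbours lie on it or close to it.

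Of the 16 other CC ligand genes with a row, 7 were listed at 0 in all 9 libraries, and 5 had values above 0 in enough libraries to be tested. In limma 0 of these 5 had an adjusted p under 0.05, and 0 an unadjusted p under 0.05, in any of the 3 comparisons. Ccl27a, a skin chemokine, was the only one above 1 FPKM in any library, at 3.33 ± 0.364 FPKM in Con, 3.30 ± 0.770 in TNF-α and 3.29 ± 0.818 in TNF-α+WBT (SD, n = 3 each). It shares exon sequence with Il11ra1 on the opposite strand, which was measured at 0.623 to 1.32 FPKM, so its value is uncertain.

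None of the 15 CC chemokine receptor genes, atypical receptors included, exceeded 1 FPKM in any library. Ccr1, Ccr1l1 and Ccr3 were listed at 0 in all 9, and Ccr2, the main receptor of Ccl2 and Ccl7, reached at most 0.0151 FPKM, from 1.0 estimated fragment. Ccr6, the receptor of Ccl20, reached at most 0.0541 FPKM and Ccr9, the receptor of Ccl25, 0.110. Ccrl2, an atypical receptor that does not signal for migration, had the highest maximum, with a range of 0.231 to 0.858 FPKM. Of the 8 receptor genes tested, 0 had an adjusted p under 0.05 in limma, and 0 an unadjusted p under 0.05, in any comparison. The ligand genes were thus measured in cultures with few or no fragments from the genes of their receptors.

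Of 22 genes that act below chemokine receptors, 16 lay above 1 FPKM in all libraries, and the rest exceeded 1 FPKM in none. Between TNF-α and Con, 2 of the 21 tested rose and 1 fell, with a median log2 difference of 0.01. Among all 25417 genes tested, 2.94% were called higher and 1.93% lower at an adjusted p under 0.05. Pik3r5, a regulatory subunit of the phosphoinositide 3-kinase that G proteins activate, rose from 1.19 ± 0.0720 to 2.91 ± 0.0212 FPKM (SD, n = 3 each, adjusted p = 0.000398). The kinase gene Pik3cg of the same list had at most 1.0 estimated fragment in a library. Gng2, a G protein γ subunit, rose by 0.50 on the log2 scale (adjusted p = 0.0334), and Grk2, a kinase that desensitizes receptors, fell by 0.19 (adjusted p = 0.0405). The count of 3 was 1 in a model of only these 2 groups, without a trend, or without any 1 of 7 libraries. When WBT was added, 0 of the 21 passed in limma, with 0 at an unadjusted p under 0.05.

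Chemokines are held at cell surfaces by heparan sulfate proteoglycans and are trimmed by metalloproteinases. Of 12 such genes, 11 were tested, and 4 rose and 2 fell between TNF-α and Con. At an adjusted p under 0.05, 2.94% of all tested genes were called higher and 1.93% lower. The count of 6 was 3 without Con replicate 3 and 3 without a trend. Mmp9, a gelatinase, rose from 0.182 ± 0.0430 to 4.14 ± 0.166 FPKM (SD, n = 3 each, adjusted p = 2.58e-06). Gpc1, a glypican, fell from 201.3 ± 4.32 to 117.0 ± 3.11 FPKM (SD, n = 3 each, adjusted p = 4.44e-06). Mmp3, a stromelysin, rose by 1.68 on the log2 scale from a mean of 0.0319 FPKM (adjusted p = 0.00452), and the syndecan Sdc4 rose by 0.25 (adjusted p = 0.0134). In TNF-α+WBT against TNF-α, 0 of the 11 passed in limma, with 1 higher and 2 lower at an unadjusted p under 0.05. By that unadjusted threshold 732 genes were higher and 873 lower of all 25417 tested.

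Of 25 genes on the route from the TNF receptors to NF-κB, 12 rose and 0 fell with TNF-α, with 1 lower at an unadjusted p under 0.05, and the median log2 difference was 0.38. At an adjusted p under 0.05, 2.94% of all tested genes were called higher and 1.93% lower. Nfkbia, the gene of the inhibitor IκBα, rose from 24.7 ± 1.64 to 80.3 ± 1.52 FPKM (SD, n = 3 each, adjusted p = 6.36e-07). Nfkbie, the gene of the inhibitor IκBε, rose by 2.56 on the log2 scale (adjusted p = 0.000582), and the NF-κB subunit genes Relb and Nfkb2 rose by 2.15 (adjusted p = 1.65e-05) and 1.23 (adjusted p = 6.22e-06). When WBT was added, 0 of the 25 passed in limma, with 6 lower and 0 higher at an unadjusted p under 0.05. Over all 25417 genes tested, 873 were lower and 732 higher at that unadjusted threshold. The corresponding log2 differences were -0.19 for Nfkbia, -0.51 for Nfkbie, -0.14 for Relb and -0.14 for Nfkb2.

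Markers of other cell types moved with TNF-α as well. Between TNF-α and Con, 5 of 12 Schwann cell markers fell and 0 rose in limma (0 higher at an unadjusted p under 0.05), and of 17 fibroblast markers tested 3 rose and 2 fell. Among all 25417 genes tested, 2.94% were called higher and 1.93% lower at an adjusted p under 0.05. The neurotrophin receptor gene Ngfr fell by 0.80 on the log2 scale (adjusted p = 2.26e-06) and S100b fell by 1.28 (adjusted p = 6.91e-05). Cdh19 and Foxd3 fell by 0.71 (adjusted p = 7.56e-05) and 0.26 (adjusted p = 0.00352). Among the fibroblast markers, Col6a1 rose by 0.63 (adjusted p = 1.2e-05) and Col1a2 by 0.27 (adjusted p = 0.0101), while Pdgfrb fell by 0.52 (adjusted p = 5.95e-05) and Postn fell by 0.59 (adjusted p = 0.000176). When WBT was added to TNF-α, 0 of the 12 Schwann cell markers passed, with 3 higher and 0 lower at an unadjusted p under 0.05. Of the 17 fibroblast markers 0 passed, with 1 higher and 1 lower at that unadjusted threshold. Over all 25417 genes tested, 732 were higher and 873 lower by it. Of the 9 macrophage markers tested, 0 passed between TNF-α and Con, with 1 higher at an unadjusted p under 0.05. The part of such a shift in the chemokine differences was not tested. Of 12 genes used by every cell, Actb rose by 0.16 (adjusted p = 0.0337), a call lost in 12 of 19 alternatives, and the others did not pass.

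The genes whose pattern was most like each chemokine were found by Pearson's r over the 9 libraries on the log2(FPKM + 0.1) scale, among 12685 other genes that averaged 1 FPKM or more. The 9 points share 3 groups and their step from Con, and r is given as a description. For Ccl2 these were the NF-κB subunit gene Rel (r = 0.998), the adhesion molecule gene Vcam1 (0.997) and Cd74, the invariant chain of MHC class II (0.997). Vcam1 and Cd74 were also nearest to Ccl9 (0.995 each), with the immunoproteasome gene Psmb10 (0.995). For Ccl7 they were the cyclin gene Ccnd1 (0.996), Ip6k3 (0.992) and Plscr1 (0.991), and for Ccl5 the RNase gene Zc3h12a (0.988), Serpina3g (0.983) and Arhgdib (0.979). Prx (0.934) and Cpsf3 (0.921) were among the genes nearest to Ccl25. Vcam1 was at 10.7, 47.1 and 39.3 FPKM on average in Con, TNF-α and TNF-α+WBT, and Cd74 at 1.1, 15.0 and 10.6.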

How the data were processed

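Poly(A) RNA was sequenced as paired-end libraries from 9 samples (3 per group). The authors deposited FPKM per gene (56289) and per transcript (144726), which the study's scheme traces to HISAT2, StringTie and Ballgown, while versions, genome build and annotation were not given in the sources used here. Each column was assigned by its name, and the 9 columns all differed. Symbols and positions were taken from GENCODE M21 (98.1% of genes matched).

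From the smallest steps in the FPKM of 10717 single-transcript genes, depth was put at 16837105 to 26051754 fragments per library. Between 56.0% and 60.2% of low values lay within 0.1 of a whole number, so fragments per gene are approximate, and intervals from them cover counting error only.

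The test, on log2(FPKM + 0.1), covered the 25417 genes with a value above 0 in 3 or more libraries. This scale understates changes of low genes. It was done with limma 3.58.1 (R 4.3.3; lmFit, eBayes with trend, a mean per group over all 9 libraries) and Benjamini-Hochberg adjustment over all tested genes. Single genes were also compared by exact permutation tests (scipy 1.17.1). The model was tested on simulated data. All 7 chemokine genes are named, with up to 4 genes of each other list by smallest p among those past the adjusted threshold, the CC ligands and receptors above 1 FPKM, and the 3 genes nearest in pattern. Some genes that this rule or the lists include are not reported here. The Elavl1 and Il11ra1 values and neighbouring ligands were added for their position. Pik3cg was added beside Pik3r5. The members and lists were chosen with earlier results of these data known. Same-numbered libraries did not deviate together, so no pairing was used.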

Additional observations from a re-analysis of the deposited data

How the results depend on the processing

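Of 19 alternatives (other pseudocounts, filters, no trend, quantile normalization, median centring, a model of 2 groups alone, summed transcripts, a replicate block, and each library left out), all kept the calls of Ccl2, Ccl7 and Ccl9 and the absence of calls for Ccl25. Ccl20 kept its calls in the 18 that tested it. Ccl5 lost its call against Con in 1 alternative for TNF-α and in 5 for TNF-α+WBT, and Ccl8 gained one in 6 and 2. The number of chemokine genes called for TNF-α against Con was 5 or 6 of 7, and 4 of the 5 tested at a mean of at least 1 FPKM. It was 4 to 5 for TNF-α+WBT against Con and 0 throughout for TNF-α+WBT against TNF-α, where the lowest adjusted p of Ccl2 was 0.0695. In that comparison small differences changed sign. Ccl8 went to 0.01 with a pseudocount of 1 and ranged from -0.37 to 0.35 with single libraries left out, Ccl20 from -0.45 to 0.16 and Ccl25 from -0.14 to 0.03, and the cause was not tested.

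Genes called over all genes between TNF-α+WBT and TNF-α were 1, and 11 with a pseudocount of 0.01, 7 without a trend, 2 in a model of only those groups, 2 with summed transcripts, and 0 to 11 with single libraries left out (11 without TNF-α+WBT replicate 2, and 0 without its replicate 1 or Con replicate 2). Against Con, leaving out single libraries gave 588 (without Con replicate 3) to 817 in place of 942 for TNF-α+WBT. Between TNF-α and Con, receptor signalling genes went from 3 to 1 without a trend or with only the 2 groups, and to 1 to 2 with libraries left out (2 without Con replicate 2 or TNF-α replicate 1). Genes of presentation and cleavage went from 6 to 3 without a trend, and to 3 (without Con replicate 3) to 7 with libraries left out, and fibroblast and Schwann cell markers from 5 to 3 without a trend. Actb, the 1 call among genes used by every cell, fell to 0 without a trend, with only the 2 groups or with quantile normalization, and to 0 to 1 with libraries left out (1 without Con replicate 3). For TNF-α+WBT against Con, presentation and cleavage went from 6 to 3 without a trend or with only the 2 groups and to 3 (without Con replicate 1 or 3 or TNF-α+WBT replicate 1) to 6 with libraries left out, receptor signalling was 1 to 2 (2 without Con replicate 2), and fibroblast markers went from 3 to 5 at a mean of at least 1 FPKM and were 3 to 5 (5 without Con replicate 2) with libraries left out.

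The labels share replicate numbers between groups, but same-numbered libraries correlated by only -0.05 to 0.098 in their deviations, and 6 of 18 library and group pairs were best matched by their own number. With the replicate number as a block, 893 of all genes in place of 1236 were called between TNF-α and Con, 701 in place of 942 between TNF-α+WBT and Con, and 0 in place of 1 between the stimulated groups. The block kept 5, 0 and 5 chemokine genes called, and gave 1 receptor signalling gene between TNF-α and Con and 0 and 1 genes used by every cell against Con.

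Depth limits Ccl8 and Ccl20, with at most 12.9 estimated fragments in a library.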
